A study of Mus musculus with 4 samples.

Results

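The 10 genes described here make, conjugate, carry or sense bile acids, and were chosen by name from the 31053 genes of a single-cell count matrix. They are Cyp7a1, Cyp8b1, Akr1d1, Slc27a5, Baat, Slc10a1, Abcb11, Nr1h4, Nr0b2 and Fgfr4, and all 10 had a row in the matrix. The matrix holds 43351 cells from 4 libraries of mouse fetuses that all carry the genotype label Cyp27a1-/-, that is, lack sterol 27-hydroxylase, the mitochondrial enzyme that oxidises the sterol side chain. The libraries differ in fetal age and in the mother: E18.5 with a Cyp27a1-/- mother (16517 cells), E18.5 with a Cyp27a1+/- mother (17034 cells), E14.5 with a Cyp27a1-/- mother (4843 cells) and E14.5 with a Cyp27a1+/- mother (4957 cells). The comparison in the design is the mother's genotype at a fixed fetal genotype and age.

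There was 1 library for each group, so no spread between samples can be given and no test between groups was made. Intervals below are exact 95% intervals that cover counting error only. The title of the E18.5 library with the Cyp27a1+/- mother also carries a WT tag, against its genotype label, and how many fetuses went into a library is not given in the sources used here. Cyp27a1 itself was counted at 37.3 and 38.5 CPM (counts of unique molecular identifiers, UMIs, 1 for each captured RNA molecule, per 1e6 UMIs of the library or class) in the E18.5 libraries of the Cyp27a1-/- and the Cyp27a1+/- mother. It was at 19.7 and 18.7 CPM in the E14.5 libraries in the same order of mothers. The deleted part of the gene is not given, so these counts check no label.

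All 4 libraries are labelled lung, and the counts of both libraries labelled E18.5 went against that label. Nkx2-1, the transcription factor that marks lung epithelium, had 1 and 4 UMIs in the E18.5 libraries of the Cyp27a1-/- and Cyp27a1+/- mothers, against 2804 and 1935 UMIs in the E14.5 libraries. Alb and Afp, which encode the plasma proteins albumin and alpha-fetoprotein made by fetal hepatocytes, were at 8344 and 4718 CPM in the E18.5 library of the Cyp27a1-/- mother and at 2905 and 1427 CPM in that of the Cyp27a1+/- mother. At E14.5 Alb was at 0.469 and 0.574 CPM. The E18.5 libraries are therefore called the libraries labelled E18.5, with no tissue name.

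Bile acids are made from cholesterol in hepatocytes, by a classic route that opens with 7-alpha-hydroxylation by Cyp7a1 and by an acidic route that opens with side chain oxidation by Cyp27a1. The products are conjugated to taurine or glycine, pumped into bile, and taken up again in the ileum and from portal blood. The nuclear receptor FXR, encoded by Nr1h4, senses them and lowers Cyp7a1, through the corepressor SHP (Nr0b2) in the liver and through ileal FGF15, which signals to hepatocytes by the receptor FGFR4 with its partner beta-klotho.

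In the coordinates of mm10, the genome build of the authors' counts, the synthesis genes are Cyp7a1 (ENSMUSG00000028240, chr4:6265612-6275633, minus strand), Cyp8b1 (ENSMUSG00000050445, chr9:121914356-121916305, minus) and Akr1d1 (ENSMUSG00000038641, chr6:37530173-37568815, plus). The conjugation genes are Slc27a5 (ENSMUSG00000030382, chr7:12988346-12998192, minus) and Baat (ENSMUSG00000039653, chr4:49489422-49506557, minus). The carriers are Slc10a1 (ENSMUSG00000021135, chr12:80953183-80968705, minus) and Abcb11 (ENSMUSG00000027048, chr2:69238282-69342616, minus). The sensing genes are Nr1h4 (ENSMUSG00000047638, chr10:89454234-89533585, minus), Nr0b2 (ENSMUSG00000037583, chr4:133553376-133556536, plus) and Fgfr4 (ENSMUSG00000005320, chr13:55152640-55168759, plus). All are protein coding, and Abcb11 alone among the 10 shares exon bases with genes on the other strand, Gm13613 and Gm13614.

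The 250 bases before the annotated start are shown for 3 members whose level climbed with the Alb and Afp share of the cell and for 2 whose level did not, a split described further on. They come from RefSeq, build GRCm38.p6, read 5′ to 3′ on the strand of the gene, and RefSeq's table held a window for 7 of the 10 members, without Cyp7a1, Slc27a5 and Baat. Capitals mark matches, on either strand, to 7 motifs searched by their letters: the HNF4 site CAAAGTCCA, the nuclear receptor hexamer AGGTCA, the LRH-1 site CAAGGTCA, the HNF1 hexamer GTTAAT, the C/EBP site TTGCNNAA, an FXR inverted repeat and the TATA box TATAAA.
Cyp8b1, chr9:121916306-121916555, minus: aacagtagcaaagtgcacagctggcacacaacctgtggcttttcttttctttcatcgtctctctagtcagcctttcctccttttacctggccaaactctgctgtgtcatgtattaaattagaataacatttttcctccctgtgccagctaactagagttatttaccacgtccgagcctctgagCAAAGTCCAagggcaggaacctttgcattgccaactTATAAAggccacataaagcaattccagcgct
Slc10a1, chr12:80968706-80968955, minus: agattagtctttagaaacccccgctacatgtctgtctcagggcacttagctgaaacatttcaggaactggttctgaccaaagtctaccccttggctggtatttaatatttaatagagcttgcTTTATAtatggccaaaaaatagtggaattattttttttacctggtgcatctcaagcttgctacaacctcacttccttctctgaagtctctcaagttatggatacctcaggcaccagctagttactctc
Abcb11, chr2:69342617-69342866, minus: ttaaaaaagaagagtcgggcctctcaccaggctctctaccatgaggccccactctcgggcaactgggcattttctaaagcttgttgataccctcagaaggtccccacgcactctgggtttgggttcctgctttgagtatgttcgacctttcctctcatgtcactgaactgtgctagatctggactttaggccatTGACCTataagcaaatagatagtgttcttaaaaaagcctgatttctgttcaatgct
Akr1d1, chr6:37529923-37530172, plus: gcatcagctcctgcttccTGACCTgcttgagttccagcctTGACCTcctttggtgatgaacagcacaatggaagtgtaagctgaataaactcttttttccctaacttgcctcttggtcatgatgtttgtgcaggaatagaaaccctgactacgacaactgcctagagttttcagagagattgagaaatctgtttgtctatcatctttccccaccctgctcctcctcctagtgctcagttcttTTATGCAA
Nr1h4, chr10:89506659-89506908, minus: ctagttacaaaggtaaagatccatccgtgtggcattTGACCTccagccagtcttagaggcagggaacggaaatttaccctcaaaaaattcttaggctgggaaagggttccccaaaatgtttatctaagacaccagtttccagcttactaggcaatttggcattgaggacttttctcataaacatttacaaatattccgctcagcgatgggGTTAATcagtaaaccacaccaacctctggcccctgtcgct
In Cyp8b1 the HNF4 site spans bases 67 to 59 before the start and the TATA box bases 31 to 26, both on the gene's strand. The HNF4 letters are in 0.387% of 32536 promoter windows of this length, and the TATA box letters in 12.3%. The Slc10a1 window shown holds the TATA letters on the opposite strand, bases 128 to 123 before its start. A window before another annotated Slc10a1 start, not printed here, holds the nuclear receptor hexamer at bases 87 to 82 on the gene's strand and the C/EBP letters at bases 75 to 68 on the opposite strand. Of the windows printed, those of Abcb11, Akr1d1 and Nr1h4 hold the hexamer on the opposite strand, 1 match in Abcb11 at bases 56 to 51, 2 matches in Akr1d1 and 1 in Nr1h4, and 4567 of the 32536 windows hold those letters. Akr1d1 also holds the C/EBP letters in its last 8 bases, found in 9.57% of windows, and Nr1h4 the HNF1 hexamer at bases 40 to 35, found in 6.47%. The Nr1h4 start used here lies inside the gene's span, since the gene has other starts. These matches are letters in a window and were not set against any measured binding.

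Cells rich in Alb and Afp were gated as those with at least 1% of their UMIs from the 2 genes together and at least 5 UMIs of each. The gate took 2271 cells, 13.7% (13.2 to 14.3%), of the E18.5 library of the Cyp27a1-/- mother and 708 cells, 4.16% (3.86 to 4.47%), of that of the Cyp27a1+/- mother, and no cell at E14.5. The gated cells carried the other hepatocyte markers: of 10 such genes (Apoa1, Apoa2, Ttr, Trf, Fgb, Fga, Ahsg, Serpina6, Ambp and Rbp4), the median gated cell detected 10 and 9 in the libraries of the Cyp27a1-/- and the Cyp27a1+/- mother. Gated cells had a median of 7163 and 5998 UMIs in the same order, and their summed UMIs were 21255870 and 5474814. Of the gated cells with sex-linked UMIs of 1 sex only, 678 were male and 487 female with the Cyp27a1-/- mother, and 301 male and 1 female with the Cyp27a1+/- mother. Sex and the mother's genotype cannot be told apart in the whole gate, and the ratio in male cells alone is given beside that of each member.

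Cells outside the gate that detected at least 3 genes of a marker list were assigned to the list with the largest share detected; these are classes by list, and no value is given for a class of under 50 cells. Across libraries, 515 barcode sequences were shared. Doublet calls by Scrublet took 6.65% and 4.44% of the cells of the E18.5 libraries with the Cyp27a1-/- and Cyp27a1+/- mothers, and 8.15% and 3.67% of the gated cells. At E14.5 the calls took 0.619% and 0.121% of cells, too few for use.

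Nearly all bile acid gene counts of the libraries labelled E18.5 lay in the Alb- and Afp-rich cells for 6 of the 10 members, and far less so for Nr1h4 and Nr0b2. UMIs outside the gate were 4.45% and 5.02% of all Cyp7a1 UMIs in the libraries of the Cyp27a1-/- and the Cyp27a1+/- mother. The 10 hepatocyte markers not used for the gate had 2.52% (Fga) to 4.57% (Apoa2) of their UMIs outside with the Cyp27a1-/- mother. With the Cyp27a1+/- mother they had 3.58% (Fgb) to 6.69% (Serpina6) outside. Alb, at 3.21% and 4.87%, is part of the gate rule and so is no yardstick. The shares outside were 7.58% and 5.96% for Cyp8b1, 2.53% and 3.52% for Slc27a5, 3.64% and 8.21% for Slc10a1, 3.91% and 8.71% for Abcb11 and 2.63% and 9.09% for Fgfr4. Akr1d1 (15.5% and 16.9%) and Baat (15.8% and 20.2%) had more of their UMIs outside, Nr1h4 15.7% and 36.6%, and Nr0b2 44.0% and 58.5%. For Akr1d1, Baat and Nr1h4, part of these lay in cells with 0.5 to 1% Alb plus Afp, just below the gate. With the Cyp27a1-/- mother such cells held 30 of 105 outside UMIs of Akr1d1, 16 of 62 of Baat and 35 of 98 of Nr1h4. With the Cyp27a1+/- mother they held 7 of 36, 4 of 18 and 8 of 82. Nr0b2 had 0 UMIs in them in both libraries.

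The counts outside the gate were not spread alike. In cells of the neutrophil list, Slc10a1 was at 1.48 and 1.05 CPM with the Cyp27a1-/- and the Cyp27a1+/- mother, Cyp7a1 had a UMI in 0.206% and 0.0928% of those cells, and Fgfr4 had no UMI in either library. Nr0b2 had 35 of its 51 outside UMIs in that class with the Cyp27a1-/- mother (0.962 CPM) and 17 of 31 with the Cyp27a1+/- mother (0.597 CPM). Nr1h4, by contrast, was at 46.1 CPM (25.2 to 77.3) in the 64 mesenchyme-list cells with the Cyp27a1-/- mother and at 35.8 CPM (19.5 to 60.0) in the 87 such cells with the Cyp27a1+/- mother, 14 UMIs in each. The gated cells were lower by value for Nr1h4, at 24.7 and 25.9 CPM in the same order. The second of these lies inside the mesenchyme-list interval. Slc10a1, with far more UMIs than Nr1h4 in the gated cells, had 1 UMI in each of those mesenchyme-list classes. RNA spilled from other cells was not estimated.

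Gut-list cells were another place for Nr1h4, in 1 library. The E18.5 library of the Cyp27a1-/- mother had 0 cells assigned to the gut epithelium list, against 23 with the Cyp27a1+/- mother. Those 23 cells, too few for a level, held 32 Nr1h4 UMIs, 11 Abcb11 UMIs and 5 Nr0b2 UMIs, and no Cyp7a1, Cyp8b1, Slc27a5, Baat or Fgfr4 UMI. The ileal partners were not seen. Slc10a2, the ileal uptake carrier, Fabp6, the ileal bile acid binding protein, and Fgf15 had 0 UMIs in all cells of both libraries labelled E18.5, gut-list cells included.

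**Figure D1:**
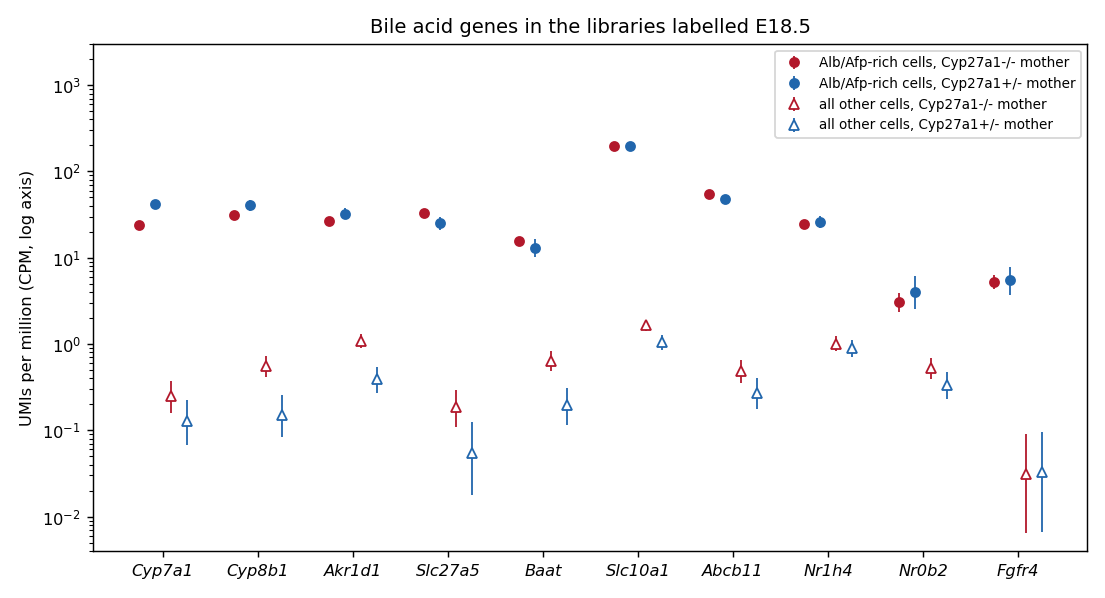
Level of each bile acid gene in CPM (log axis) in the libraries labelled E18.5, in Alb/Afp-rich cells (filled circles) and all other cells (open triangles), with the Cyp27a1-/- mother in red and the Cyp27a1+/- mother in blue and bars for exact 95% counting intervals. All 10 genes sit higher in the gated cells, from 3.06 CPM for Nr0b2 to 198 CPM for Slc10a1 with the Cyp27a1-/- mother.

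In whole libraries, every member was higher at E18.5 with the Cyp27a1-/- mother than with the Cyp27a1+/- mother. Slc10a1, for example, was at 37.0 CPM (35.9 to 38.1) with the Cyp27a1-/- mother and at 12.1 CPM (11.4 to 12.8) with the Cyp27a1+/- mother, and Cyp7a1 at 4.57 CPM and 2.44 CPM. The gated cells made up 13.7% and 4.16% of those libraries, and a change in the number of such cells cannot be separated from a change per cell in whole-library values. The comparison below is therefore made within the gate.

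Within the gate the 10 genes together took 416 and 434 CPM with the Cyp27a1-/- and Cyp27a1+/- mothers. Cyp7a1 was lower with the Cyp27a1-/- mother, and the other members with enough UMIs to be measured had ratios within 1.5-fold. A gene was measured if the library where its CPM was higher held 50 UMIs of it or more, which 8 members met, all but Nr0b2 and Fgfr4. It was called past a CPM ratio, Cyp27a1-/- over Cyp27a1+/- mother, of 1.5 or its inverse. None of the 8 was called higher and 1, Cyp7a1, lower. Over the 8897 measured genes of the gate, 859 (9.65%) were called higher and 168 (1.89%) lower, and the median ratio was 1.12, while the 8 members had a median log2 ratio of -0.02 on log2(CPM + 10). A count of 1 in 8 says nothing particular to the members.

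Cyp7a1, the rate-limiting enzyme of the classic route, had 515 UMIs (24.2 CPM) with the Cyp27a1-/- mother and 227 UMIs (41.5 CPM) with the Cyp27a1+/- mother. The ratio was 0.584 (0.499 to 0.686), and 1.03% of measured genes had a ratio as low or lower. In male cells alone the ratio was 0.513. The call held under 16 of 17 other settings. Of these, a pseudocount of 1 CPM and minimums of 10 and 200 UMIs leave a ratio as it is, at 0.584 here, and so do not check it. A demand for at least 5 of the 10 other hepatocyte markers kept 2270 of 2271 and 708 of 708 gated cells, and so scarcely checks it. The exception was a quality limit of 1000 genes or more and a mitochondrial share below 10%. Cells inside that limit gave a ratio of 0.709 from 351 and 99 UMIs with the Cyp27a1-/- and Cyp27a1+/- mothers.

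Cyp8b1, the sterol 12-alpha-hydroxylase that sets the share of cholic acid, had 658 UMIs (31.0 CPM) with the Cyp27a1-/- mother and 221 UMIs (40.4 CPM) with the Cyp27a1+/- mother. Its ratio of 0.767 (0.657 to 0.897) was below 1 beyond counting error and inside the 1.5-fold limits, and in male cells alone it was 0.692. Akr1d1, the 5-beta-reductase that gives the steroid ring its bile acid shape, had 573 UMIs (27.0 CPM) and 177 UMIs (32.3 CPM) in the same order, a ratio of 0.834 (0.703 to 0.993), with 0.865 in male cells alone. All 3 synthesis members were thus lower by value with the Cyp27a1-/- mother, Cyp7a1 most. This covers the members alone: Hsd3b7, another synthesis enzyme, had 14 and 3 UMIs in the same order and was not measured.

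Of the conjugation enzymes, Slc27a5 had a ratio above 1 beyond counting error and Baat did not. Slc27a5, the bile acid CoA ligase, had 693 UMIs (32.6 CPM) with the Cyp27a1-/- mother and 137 UMIs (25.0 CPM) with the Cyp27a1+/- mother, a ratio of 1.30 (1.08 to 1.58), with 1.18 in male cells alone. The male ratio rests on 270 and 89 UMIs in that order of mothers. A ratio above 1 was common in the gate, at 6774 of the 8897 measured genes. Their median ratio of 1.12 lies inside the Slc27a5 interval. Baat, which joins bile acid CoA to taurine or glycine, had 330 UMIs (15.5 CPM) and 71 UMIs (13.0 CPM) in the same order, a ratio of 1.20 (0.924 to 1.57) whose interval spans 1. In male cells alone the Baat ratio was 1.01, and under the quality limits on cells it was 1.02.

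Both carriers had ratios inside the 1.5-fold limits, with intervals that span 1. Slc10a1, the sodium-dependent uptake carrier NTCP of the sinusoidal face, had 4212 UMIs (198 CPM) with the Cyp27a1-/- mother and 1085 UMIs (198 CPM) with the Cyp27a1+/- mother, a ratio of 1.00 (0.935 to 1.07), with 0.972 in male cells alone. Abcb11, the canalicular bile salt export pump, had 1156 UMIs (54.4 CPM) and 262 UMIs (47.9 CPM) in the same order, a ratio of 1.14 (0.993 to 1.30), with 1.06 in male cells alone and 1.46 under the quality limits. For Slc10a1 the counts put a 1.5-fold difference between these 2 libraries well outside the interval.

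The 3 sensing genes had intervals that span 1. Nr1h4, the bile acid receptor, had 526 UMIs (24.7 CPM) with the Cyp27a1-/- mother and 142 UMIs (25.9 CPM) with the Cyp27a1+/- mother, a ratio of 0.954 (0.791 to 1.16), with 0.935 in male cells alone. Nr0b2, the corepressor that FXR induces, had 65 UMIs (3.06 CPM) and 22 UMIs (4.02 CPM) in the same order, and its ratio of 0.761 (0.463 to 1.30) has the widest limits of the 3. Fgfr4 had 111 UMIs (5.22 CPM) and 30 UMIs (5.48 CPM), a ratio of 0.953 (0.632 to 1.48). In male cells alone the ratios of Nr0b2 and Fgfr4 were 0.958 and 0.814, and in cells thinned to 2000 UMIs they were 1.97, from 20 and 3 UMIs, and 1.85, from 25 and 4 UMIs. Neither gene has a direction at this depth.

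**Figure D2:**
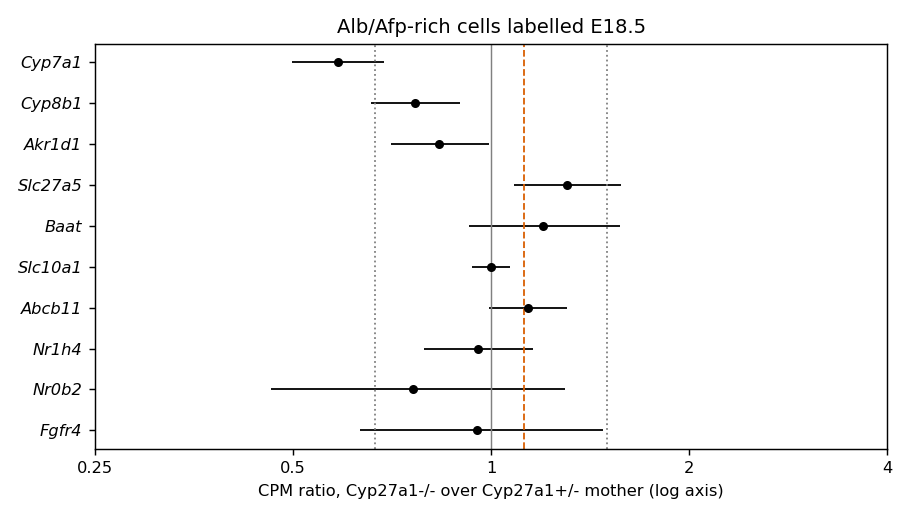
CPM ratio of each gene in the Alb/Afp-rich cells of the libraries labelled E18.5, Cyp27a1-/- over Cyp27a1+/- mother (log axis), with exact 95% counting intervals, the 1.5-fold limits dotted and the median ratio of all measured genes, 1.12, dashed. Cyp7a1, at 0.584, is the one gene of the 10 past the lower limit.

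Sums over the marker lists of other cells differed in the gate between the libraries and are given beside these ratios. A sum can rest on few genes of its list. Genes of the gut epithelium list summed to 24.9 CPM with the Cyp27a1-/- mother (3 of 8 at 0) and to 211 CPM with the Cyp27a1+/- mother (1 of 8 at 0). The cholangiocyte list summed to 167 and 591 CPM, the lung epithelium list to 46.1 and 94.2 CPM, the macrophage list to 69.3 and 32.1 CPM, the megakaryocyte list to 163 and 17.0 CPM and the neutrophil list to 2827 and 2064 CPM in the same order. Spp1 alone gave 125 and 507 CPM of the cholangiocyte sums, and Pf4 alone 153 and 12.1 CPM of the megakaryocyte sums. In the lung epithelium list Cdh1 was alike, at 29.8 and 31.6 CPM, and Sox9 differed, at 4.89 and 17.0 CPM. Sftpc and Sftpb of that list had 0 UMIs in the gate. Cyp7a1 had ratios of 0.558 without cells that detect the 3 epithelial lists, 0.577 without cells with 3 genes of a blood list and 0.601 without called doublets. The median mitochondrial share of gated cells was 6.95% and 7.83%.

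Within the gate, 8 of the members differed in how their level followed the Alb and Afp share of the cell. Cyp7a1, Cyp8b1, Slc27a5, Slc10a1 and Abcb11 climbed with that share in both libraries. With the Cyp27a1-/- mother, Cyp7a1 was at 6.68, 11.3, 26.8 and 38.1 CPM in cells with 1 to 2%, 2 to 5%, 5 to 10% and over 10% Alb plus Afp, and with the Cyp27a1+/- mother at 3.72, 19.8, 43.5 and 67.8 CPM. Slc10a1 was at 63.4, 107, 224 and 272 CPM with the Cyp27a1-/- mother and at 29.8, 108, 232 and 253 CPM with the Cyp27a1+/- mother over the same 4 ranges.

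Nr1h4, Akr1d1 and Baat showed no steady climb. Nr1h4 was at 22.0, 26.8, 23.1 and 29.3 CPM with the Cyp27a1-/- mother and at 24.2, 32.4, 22.8 and 29.5 CPM with the Cyp27a1+/- mother, and was already at 26.2 and 20.8 CPM in cells with 0.5 to 1% Alb plus Afp, below the gate. The last of these Nr1h4 values, 20.8 CPM, rests on 8 UMIs. Akr1d1 was at 33.4, 29.4, 24.9 and 29.1 CPM with the Cyp27a1-/- mother and at 26.0, 41.8, 30.3 and 33.5 CPM with the Cyp27a1+/- mother. Baat was at 14.7, 15.8, 16.0 and 14.4 CPM with the Cyp27a1-/- mother. With the Cyp27a1+/- mother it was at 7.44, 13.6, 16.8 and 7.18 CPM, from 4, 13, 47 and 9 UMIs. Nr0b2 and Fgfr4 were too sparse to place: Fgfr4 was at 3.34, 4.47, 5.98 and 4.23 CPM with the Cyp27a1-/- mother and at 13.0, 4.18, 4.64 and 4.79 CPM with the Cyp27a1+/- mother, from 4 to 13 UMIs a range in the second library. The low-share cells had few mitochondrial UMIs: the median share was 0.855%, 1.87%, 7.79% and 11.7% over the 4 ranges with the Cyp27a1-/- mother and 1.10%, 1.05%, 8.77% and 12.6% with the Cyp27a1+/- mother. Whether that difference in mitochondrial RNA has a part in the split of the members was not tested.

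**Figure D3:**
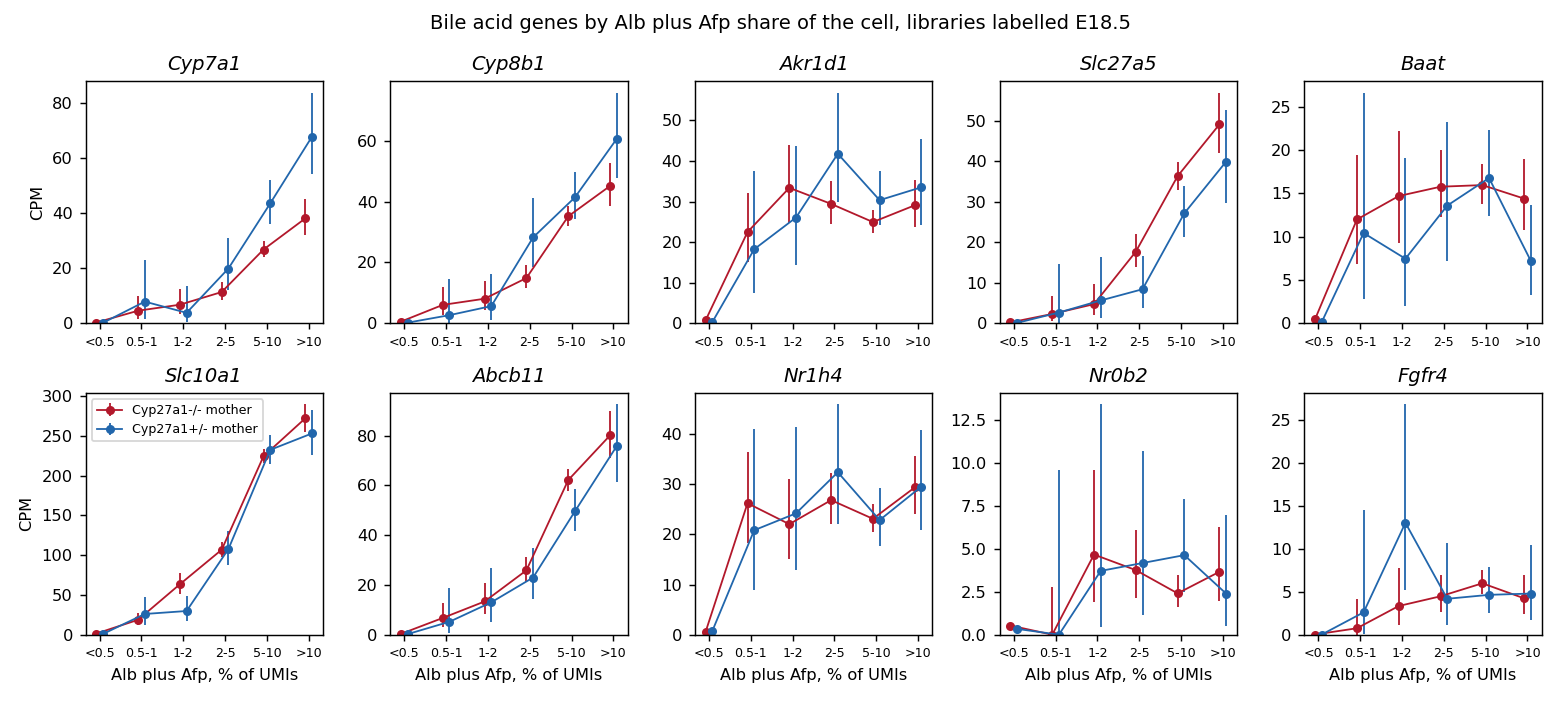
CPM of each gene (linear axes from 0) against the share of the cell's UMIs that came from Alb plus Afp, in the libraries labelled E18.5, with the Cyp27a1-/- mother in red, the Cyp27a1+/- mother in blue and bars for exact 95% counting intervals. Cyp7a1, Cyp8b1, Slc27a5, Slc10a1 and Abcb11 climb across the ranges, while Nr1h4 sits between 20.8 and 32.4 CPM in every range from 0.5 to 1% upwards.

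The lower Cyp7a1 level with the Cyp27a1-/- mother was seen at matched Alb and Afp shares. The ratio was 0.569 (0.328 to 1.03) at 2 to 5%, 0.615 (0.497 to 0.763) at 5 to 10% and 0.562 (0.425 to 0.746) over 10%. At 1 to 2% there were 10 and 2 UMIs with the Cyp27a1-/- and Cyp27a1+/- mothers, and the ratio of 1.79 has an interval of 0.382 to 16.8. Split instead into 3 parts, equal over both libraries together, by Alb over Alb plus Afp, a measure of which of the 2 plasma proteins dominates, the ratio was 0.661, 0.529 and 0.623 in the lowest, middle and highest part.

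Split by mitochondrial share, a division chosen after the values were seen, the Cyp7a1 ratio was less even. It was 0.789 (0.498 to 1.29) in gated cells with under 5% mitochondrial UMIs, from 72 UMIs with the Cyp27a1-/- mother and 26 UMIs with the Cyp27a1+/- mother. It was 0.615 (0.476 to 0.805) at 5 to 10% and 0.552 (0.435 to 0.703) above 10%, where the levels were 35.0 and 63.3 CPM in the same order. Cells above 10% were 33.6% of the gate with the Cyp27a1-/- mother and 41.8% with the Cyp27a1+/- mother. Slc10a1, for comparison, had ratios of 0.800 (0.703 to 0.913), 1.00 (0.903 to 1.12) and 0.996 (0.880 to 1.13) over the same 3 divisions. Under 5% it was thus below 1 beyond counting error, at a value near that of Cyp7a1.

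Per cell the members were sparse. After thinning each gated cell to 2000 UMIs, which left out 260 and 114 shallower cells with the Cyp27a1-/- and Cyp27a1+/- mothers, Cyp7a1 had a UMI in 4.62% (3.75 to 5.64%) and 7.24% (5.29 to 9.63%) of cells. In neutrophil-list cells thinned alike the share was 0.0755% and 0.0519%, at median depths of 7257 and 5252 UMIs before thinning, and unthinned the gated shares were 17.0% and 21.0%. Slc10a1 had a UMI in 28.4% and 25.1% of thinned gated cells. The highest Cyp7a1 count in 1 cell was 4 and 6 UMIs, and the 10 cells with most held 7.18% and 18.9% of the gate's Cyp7a1 UMIs, in the same order of mothers.

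Members were seen together in few cells. The median gated cell had a UMI of 2 of the 10 genes in both libraries. None of the 10 was seen in 472 cells (20.8%) with the Cyp27a1-/- mother and 186 cells (26.3%) with the Cyp27a1+/- mother, and at least 5 were seen in 209 (9.20%) and 54 (7.63%). The most seen in 1 cell was 8, in both libraries.

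Across the 32 library and class units of all 4 libraries, the gene most like each member was found by Pearson's r of log2(CPM + 10), given as a description since the 2 units of gated cells set most of it. It was C4bp, a complement regulator, for Cyp7a1, Slc2a2, the hepatocyte glucose carrier, for Cyp8b1, Masp2 for Slc10a1, A1cf for Abcb11, Cyp2a22 for Slc27a5, Ces2a for Baat and Cyp2c40 for Akr1d1, with r between 0.995 and 1.00. Such closeness is common: 50 genes had an r above 0.99 with Cyp7a1 and 97 with Slc10a1. Nr1h4 had none above 0.99, and its nearest gene was C1ra, a complement protease, at r of 0.979.

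The other synthesis enzymes of the gated cells did not move past 1.5-fold. Of 14 listed, 10 were measured and 0 were called in either direction, beside 9.65% higher and 1.89% lower over all measured genes of the gate. Their median log2 ratio was 0.07, beside 0.09 over all measured genes. Akr1c6, a hydroxysteroid dehydrogenase, had the lowest ratio, 0.696 (0.595 to 0.816), with 28.1 CPM with the Cyp27a1-/- mother and 40.4 CPM with the Cyp27a1+/- mother. Cyp39a1, an oxysterol 7-alpha-hydroxylase, followed at 0.842. Cyp2c70, which makes the muricholic acids of mice, was at 213 and 181 CPM, a ratio of 1.18, and Hsd17b4, a peroxisomal enzyme of side chain shortening, had a ratio of 1.10. Cyp7b1 and Ch25h, both sterol hydroxylases, had 0 UMIs in the gate.

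Among 16 other carriers, 6 were measured, with a median log2 ratio of 0.07. Of these, 1 was called higher and 0 lower, beside 9.65% and 1.89% over all measured genes of the gate. The one called was Ephx1, the microsomal epoxide hydrolase that has also been linked to bile acid uptake, with 198 UMIs (9.32 CPM) with the Cyp27a1-/- mother and 28 UMIs (5.11 CPM) with the Cyp27a1+/- mother, a ratio of 1.82 (1.22 to 2.81). In male cells alone its ratio was 1.14. Abcg2, a canalicular efflux pump, had a ratio of 1.19, Abcc2, the conjugate export pump, 0.969 and Abcb4, the phospholipid floppase of bile, 0.882.

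Among 18 other sensing and control genes, 17 were in the matrix and 12 were measured, with a median log2 ratio of -0.03. Of the 12, 0 were called higher and 3 lower, beside 9.65% and 1.89% over all measured genes of the gate. Nr1i3, the xenobiotic receptor CAR, had 92 UMIs (4.33 CPM) with the Cyp27a1-/- mother and 58 UMIs (10.6 CPM) with the Cyp27a1+/- mother, a ratio of 0.409 (0.291 to 0.578). Fgfr2, a fibroblast growth factor receptor, had a ratio of 0.620 (0.465 to 0.833) from 166 and 69 UMIs. Nr5a2, which encodes LRH-1, an activator of Cyp7a1 and Cyp8b1, had 372 UMIs (17.5 CPM) and 145 UMIs (26.5 CPM) in the same order of mothers, a ratio of 0.661 (0.544 to 0.806). These 3 ratios are for the whole gate, where sex and the mother's genotype cannot be told apart. The call held under 11 of 17 other settings for Nr1i3 and Fgfr2 and under 8 for Nr5a2. Those 17 include the changes of pseudocount and minimum UMIs, which leave a ratio as it is, and the demand for other hepatocyte markers, which kept nearly all gated cells.

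Genes next to those 3 in the list were lower by value but inside the limits. Klb, the beta-klotho partner of FGFR4, was at 14.2 and 19.5 CPM with the Cyp27a1-/- and the Cyp27a1+/- mother, a ratio of 0.727 (0.581 to 0.915), and Nr1i2, the xenobiotic receptor PXR, had a ratio of 0.747. Hnf4a, the hepatocyte nuclear receptor, had a ratio of 0.967 (0.862 to 1.09). The highest ratios of the list were those of Foxa2, 1.21, and Fgfr3, 1.11.

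**Figure D4:**
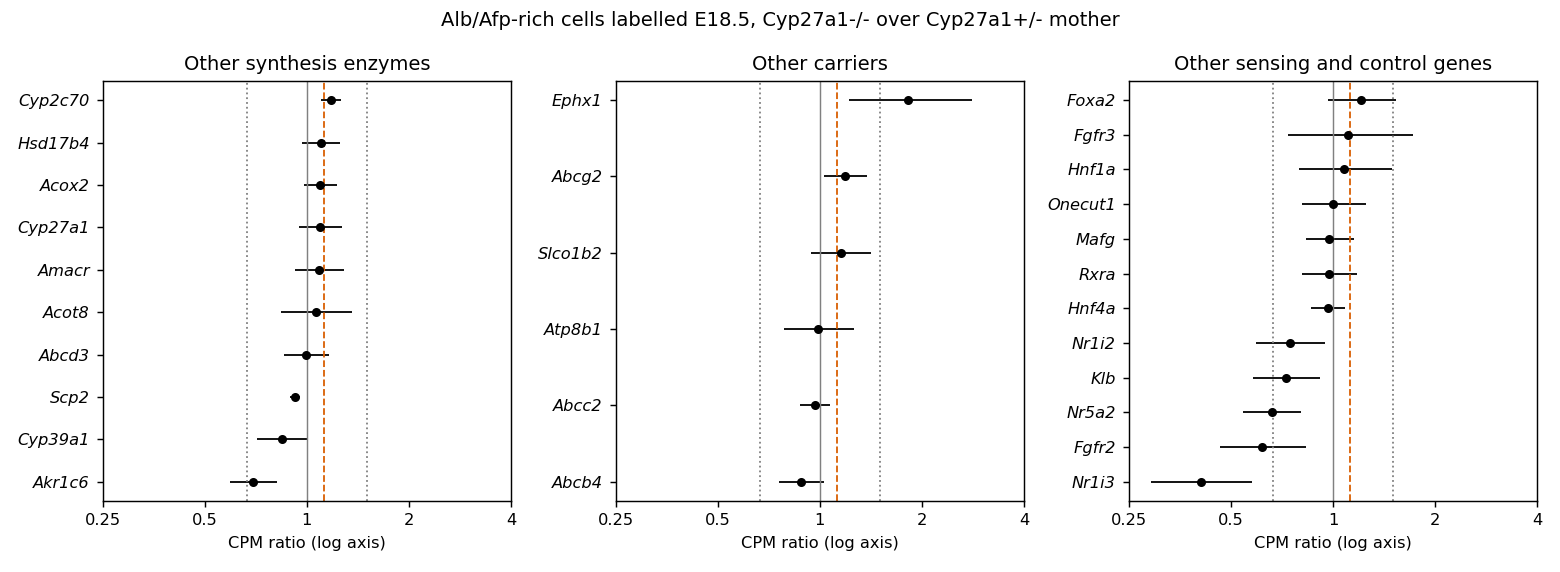
CPM ratios, Cyp27a1-/- over Cyp27a1+/- mother (log axis), of the measured genes of 3 further bile acid lists in the Alb/Afp-rich cells labelled E18.5, with exact 95% counting intervals, the 1.5-fold limits dotted and the median of all measured genes, 1.12, dashed. Ephx1, at 1.82, lies past the upper limit, and Nr1i3, Fgfr2 and Nr5a2, at 0.409, 0.620 and 0.661, lie past the lower one.

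Lists of hepatocyte maturation stand beside these as background, and over all measured genes of the gate 9.65% were called higher and 1.89% lower. The ratios in these lists are for the whole gate, where sex and the mother's genotype cannot be told apart. Of 12 detoxification and nitrogen genes of adult hepatocytes, 8 were measured, 1 was called higher and 1 lower, with a median log2 ratio of 0.20. Cyp3a11, a detoxifying P450 that PXR and CAR induce, was at 102 CPM with the Cyp27a1-/- mother and 30.3 CPM with the Cyp27a1+/- mother, a ratio of 3.37 (2.88 to 3.97), and Cyp2e1, another P450, at 7.20 and 16.4 CPM, a ratio of 0.438. Otc, of the urea cycle, had the next highest ratio, 1.36, and Arg1, of the same cycle, the next lowest, 0.962. Of 8 fetal growth genes, 6 were measured and 1, Dlk1, was called higher, at 1.51, with a median log2 ratio of 0.05. Lin28b, an RNA-binding protein gene, was next at 1.17, and the lowest were Gpc3, a glypican, at 0.923 and Igf2bp3, another RNA-binding protein gene, at 0.959.

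At E14.5, in lung cells, Fgfr4 was the one member with a level. Cyp7a1, Cyp8b1, Slc27a5 and Akr1d1 had 0 UMIs in both E14.5 libraries, which allows up to 0.0563 CPM with the Cyp27a1-/- mother and 0.0638 CPM with the Cyp27a1+/- mother (3 UMIs of the total). Slc10a1 had 21 and 8 UMIs, Nr0b2 16 and 9, Nr1h4 8 and 7, Baat 3 and 3 and Abcb11 1 and 1, in the same order of mothers. Fgfr4 had 391 UMIs (7.34 CPM) with the Cyp27a1-/- mother and 247 UMIs (5.25 CPM) with the Cyp27a1+/- mother, a ratio of 1.40 (1.19 to 1.64) over all cells.

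Fgfr4 was spread over epithelium and mesenchyme and was nearly absent from endothelium, and the 2 libraries differed in where it lay. In mesenchyme-list cells (2020 and 2195 cells with the Cyp27a1-/- and the Cyp27a1+/- mother) it had 247 UMIs (9.87 CPM) and 110 UMIs (3.94 CPM), a ratio of 2.50 (1.99 to 3.16). In that class 3.47% of 11668 measured genes were called higher and 1.72% lower. In lung-epithelium-list cells (473 and 305 cells) it had 115 UMIs (11.7 CPM) and 106 UMIs (17.2 CPM), a ratio of 0.680 (0.518 to 0.894), inside the 1.5-fold limits. There 4.14% of 9300 measured genes were called higher and 1.55% lower. Endothelium-list cells had 1 Fgfr4 UMI in each library.

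The mesenchyme result was not carried by a few cells: 199 cells (9.85%) with the Cyp27a1-/- mother and 92 cells (4.19%) with the Cyp27a1+/- mother had an Fgfr4 UMI, with at most 4 and 5 in 1 cell. Median depth in the class was 12290.5 and 11968 UMIs. In male cells alone the ratio was 3.26 and in female cells alone 2.24, and as a mean over cells, which weights shallow and deep cells alike, it was 1.80. Lung epithelium genes summed to 64.0 and 39.1 CPM in the mesenchyme-list cells (0 of 8 at 0 in both), against 9586 and 4420 CPM in the lung-epithelium-list cells. Their part in the Fgfr4 ratio was not tested.

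Among the related receptors in the mesenchyme-list cells, Fgfr3 was also called higher, at 22.7 CPM with the Cyp27a1-/- mother and 13.9 CPM with the Cyp27a1+/- mother, a ratio of 1.64 (1.44 to 1.87). Fgfr2 was at 22.3 and 22.4 CPM, a ratio of 0.994, and Fgfr1 at 36.2 and 41.1 CPM, a ratio of 0.882. Klb, the partner that FGFR4 needs to bind FGF15, had 0 and 2 UMIs in the whole E14.5 libraries of the Cyp27a1-/- and Cyp27a1+/- mothers.

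**Figure D5:**
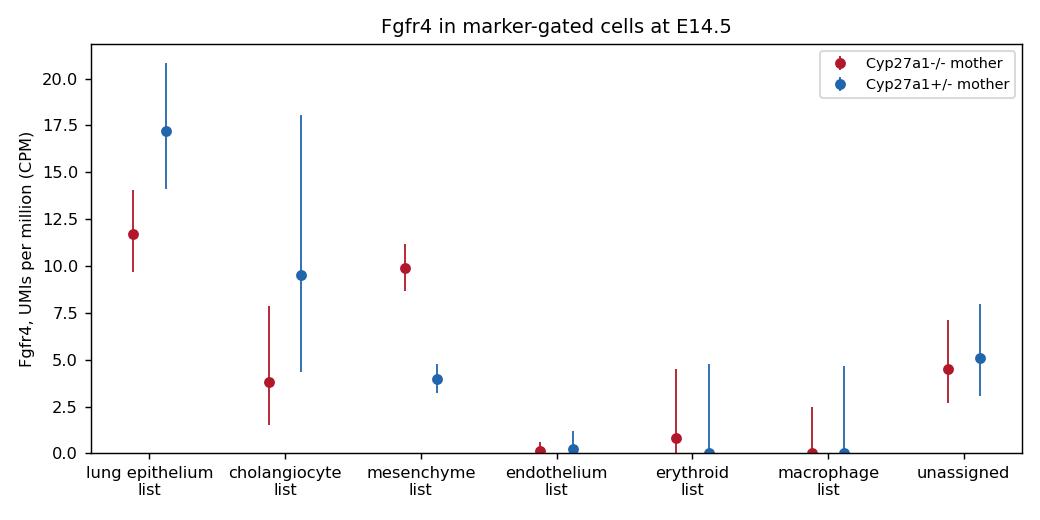
Fgfr4 in CPM (linear axis from 0) in E14.5 cells assigned to 6 marker lists and in unassigned cells, with the Cyp27a1-/- mother in red, the Cyp27a1+/- mother in blue and bars for exact 95% counting intervals. The mesenchyme list is at 9.87 and 3.94 CPM and the lung epithelium list at 11.7 and 17.2 CPM.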

How the data were processed

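Droplet libraries (10x Genomics Chromium) were sequenced and the authors deposited 1 merged matrix of UMI counts per gene and cell, whole numbers that are not normalized. Cell Ranger 3.0.0, Seurat 4.3.0 and build mm10 are named in the submitters' processing notes. Every deposited cell has at least 500 UMIs. The gene and cell name files carry each other's names, which their contents settled. Library totals were 118054232 and 97894048 UMIs at E18.5 and 53293964 and 47005276 at E14.5, for the Cyp27a1-/- and the Cyp27a1+/- mother.

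For each class and library, the counts of its cells were added up and scaled to that sum of all genes (CPM). Intervals were exact Poisson for levels, Clopper-Pearson for shares and conditional binomial for ratios, at 95%, and cover counting error only. Genes were called at 1.5-fold, given 50 UMIs where the CPM was higher. The calculation was tested on simulated counts. Doublets were called with Scrublet in scanpy 1.11.5 (Python 3.11.15, scipy 1.17.1) and kept, except in 1 alternative. The members and lists were chosen with earlier results of these data known. All 10 members are named, and of each further list the 2 largest and 2 smallest measured ratios, with any called gene; other genes named were chosen after their values were seen. Alternatives changed the gate, scaling, minimum counts, cell quality, doublets, sex, depth and marker number, and splits by mitochondrial share, removal of gated cells with epithelial genes, and the sex and quality settings at E14.5 were chosen after seeing the data.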

Additional observations from a re-analysis of the deposited data

Results flagged for a closer look

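Fgfr4 at E14.5 went in opposite directions in 2 cell classes. Its ratio, Cyp27a1-/- over Cyp27a1+/- mother, was 2.50 in mesenchyme-list cells and 0.680 in lung-epithelium-list cells, with counting intervals that lie on opposite sides of 1. The difference between the classes was not tested, since there is 1 library for each mother.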

How the results depend on the processing

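No named gene called past 1.5-fold changed sides of 1. Uncalled values did: thinned to 2000 UMIs, Nr0b2 turned to 1.97, Fgfr4 to 1.85 and Nr1h4 to 1.09. Fgfr4 was above 1 under 8 of 17 other settings, Nr1h4 under 2, and Slc10a1 under 6, at 1.05 or less. Over these settings the median log2 ratio ran from -0.11 to 0.08 for the members, from -0.15 to 0.16 for the other sensing genes, from -0.03 to 0.12 for the other synthesis enzymes and from -0.04 to 0.10 for the fetal list, 0 lying inside each range. The number of members called lower was 0, not 1, under quality limits on cells, 1000 genes or more and a mitochondrial share below 10% (Cyp7a1 at 0.709), and the number called higher was 1, Slc27a5, in cells thinned to 2000 UMIs. Cyp7a1 ranged over 0.439 to 0.709. The 168 genes called lower became 555 at a minimum of 10 UMIs, 49 at 200, 44 thinned and 106 with a gate of 5%, and the 859 called higher 1519, 308 and, as a mean over cells, 1454. Scaling by the median ratio shifted all ratios down, with Cyp7a1 at 0.546 and Slc10a1 at 0.934.

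Sensing genes called lower were 1 with a gate of 2% or without the deepest 5% of cells, and 0 with a gate of 5%, a minimum of 200 UMIs, the quality limits or thinning. Carriers called higher were 3 at a minimum of 10 UMIs, 2 under the quality limits and 0 at 200 UMIs, in male cells or thinned. Other synthesis enzymes gave 1 lower under median scaling or the quality limits and 1 higher when thinned. The adult list gave 2 higher at 10 UMIs or thinned, 0 lower at 200 UMIs, under the quality limits or thinned, and a median of 0.10 under median scaling and 0.12 at 10 UMIs. The fetal list gave 2 higher under the quality limits or in male cells, and 0 with a gate of 2%, without Alb, Afp and haemoglobin, under median scaling, as a mean over cells, without the deepest cells or without cells with epithelial genes. Fgfr4 in E14.5 mesenchyme-list cells was 1.80 as a mean over cells and 3.26 in male cells, and 2.24 to 2.63 otherwise; in lung-epithelium-list cells it was 0.615 to 0.732, past the lower limit under 3 of 6 settings.

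No paired analysis was possible because each group has 1 library and no numbers pair the samples. Nr0b2 and Fgfr4 in the gated cells are limited by depth, with 22 and 30 UMIs in the Cyp27a1+/- mother's library. Leaving out a replicate was not possible. Beyond the fewer genes or cells that a setting leaves, the causes of these shifts were not tested.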
